A study of Mus musculus with 32 samples.

Results

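The genes *Meis1*, *Meis2*, *Pbx2*, *Pbx3*, *Shox2*, *Cyp26b1*, *Rarb*, *Rarg* and *Aldh1a2* are described here by their accessible chromatin in the mouse limb bud, as recorded in 32 lists of ATAC-seq summits. A summit was counted for 1 of these 9 genes when it lay in the gene body or within 50 kb of it (mm10, the build also called GRCm38) and when the nearest protein-coding start belonged to that gene. By this rule 1565 of the 1234971 summits outside the mitochondrial genome belonged to the 9 genes. They fell into 175 sites of 200 bp that were seen in at least 2 libraries, of 125535 such intervals in the genome, and into 79 further sites seen in 1 library each, which were counted but not followed. Of the 175 sites, 26 were promoter sites, within 1 kb of a start of their gene, and 149 were distal.

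The limb grows out from the flank with a proximal part, the future upper limb, that expresses *Meis1* and *Meis2*, and a distal part that does not. MEIS proteins are homeodomain factors of the TALE class that bind DNA together with PBX partners, and retinoic acid, which is made in the trunk by ALDH1A2, is known to favour *Meis* expression through the nuclear receptors RARB and RARG. CYP26B1 degrades retinoic acid in the distal limb, and SHOX2 is a homeodomain factor needed for the proximal skeletal element.

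ATAC-seq cuts open chromatin with a transposase, and a summit is the position in a peak where the cuts pile up highest. The study asked how ETV2, an ETS-family factor best known from blood and vessel development, acts on chromatin in limb cells that express *Shh*. Its libraries came from whole or dissected limb buds and from sorted cells. The genotypes below are in the study's own notation, and each library is a pool or an embryo.

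EYFP+ cells came from E10.5 limb buds of *Etv2-EYFP* transgenic embryos, in which an *Etv2* promoter fragment drives the reporter. They were sorted as EYFP positive and negative for CD31, TIE2 and CD45, from hindlimbs (HL EYFP+, 3 libraries) and from forelimbs of the same 3 pools (FL EYFP+, 3 libraries). CKO denotes *HoxB6-Cre* Tg/+; *Etv2* fl/- embryos, in which the Cre acts in the whole hindlimb precursor and only partly in the forelimb. CKO posterior hindlimb was taken at E10.25 (5 libraries) and at E10.5 (2 libraries), and wild-type (WT) posterior hindlimb at E10.25 (2 libraries). Whole wild-type hindlimb at E9.5, EGFP+ posterior hindlimb cells of E10.5 *Shh-EGFP* embryos and anterior hindlimb cells of such embryos gave 1 library each. In the overexpression experiment, *Etv2*OE embryos carried *HoxB6-Cre* Tg/+, *iHA-Etv2* Tg/+ and *ROSA26-STOP-rtTA-IRES-EGFP* Tg/+, so that doxycycline induces HA-ETV2 in cells with a Cre history and not in every cell of the limb. Hindlimbs of 3 such embryos (embryos 7, 9 and 10) and of 4 control embryos (embryos 1, 2, 3 and 4) were cut into an anterior and a posterior part, each a library. Controls lacked 1 of these alleles, and the study's sources differ on which one it was. They also differ on the stage of this experiment, which the sample labels give as E10.5. The study describes the E10.5 CKO cells as unsorted in 1 place and as posterior hindlimb cells in another.

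A list held between 13763 and 54676 summits. The shortest was the *Shh-EGFP* anterior library, and replicates 2 and 4 of the E10.25 CKO group were short too, with 15626 and 19734 summits. Promoters of the limb mesenchyme genes *Twist1* and *Prrx1* were listed in 32 and 30 libraries. *Tbx4* and *Pitx1*, genes of the hindlimb, were listed at their promoters in all 3 HL EYFP+ libraries and in 1 of the 3 FL EYFP+ libraries, whereas a *Tbx5* promoter, which would mark forelimb, was listed in none. Of the endothelial genes, *Pecam1*, *Cdh5* and *Emcn* had no promoter summit in any library, *Tek* had one in 4 and *Kdr* in 31. Of the blood genes *Ptprc*, *Gata1* and *Spi1* had none and *Tal1* had one in 14. Of the muscle genes, *Pax3* had one in 13 libraries, *Myod1* in 10, *Myf5* in 8 and *Lbx1* in 7. Each HL EYFP+ library listed 2 to 4 of these 4 muscle promoters, and each FL EYFP+ library 0 to 3. Of the ectoderm genes, *Epcam* had one in 17, *Trp63* in 3, *Fgf8* in 2 and *Krt14* in none. Summit lists hold neither transcripts nor read depth, so the loss or gain of *Etv2* itself could not be checked in them.

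Strength was read from the order of a list. The relative rank of a summit is its place in the list, ordered by the deposited score, as a percent of the list length, so that a small value is a strong summit. Sites are named by gene, P for promoter or D for distal, and a number that runs from upstream to downstream of the gene. *Meis1* on chromosome 11 (18879817 to 19018985, minus strand) had 42 sites, 40 of them distal. *Meis2* on chromosome 2 (115863064 to 116065839, minus strand) had 32 sites, 30 of them distal and 18 of these intronic. *Rarb* on chromosome 14 (16430839 to 16819156, minus strand) had 30 sites, and 22 of its 29 distal sites lay in introns. *Pbx3* had 19 sites and *Aldh1a2* 19, *Shox2* and *Rarg* had 11 each and *Cyp26b1* 10. *Pbx2*, a gene of 6135 bp on chromosome 17, had a single site, at its promoter.

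**Figure D1:**
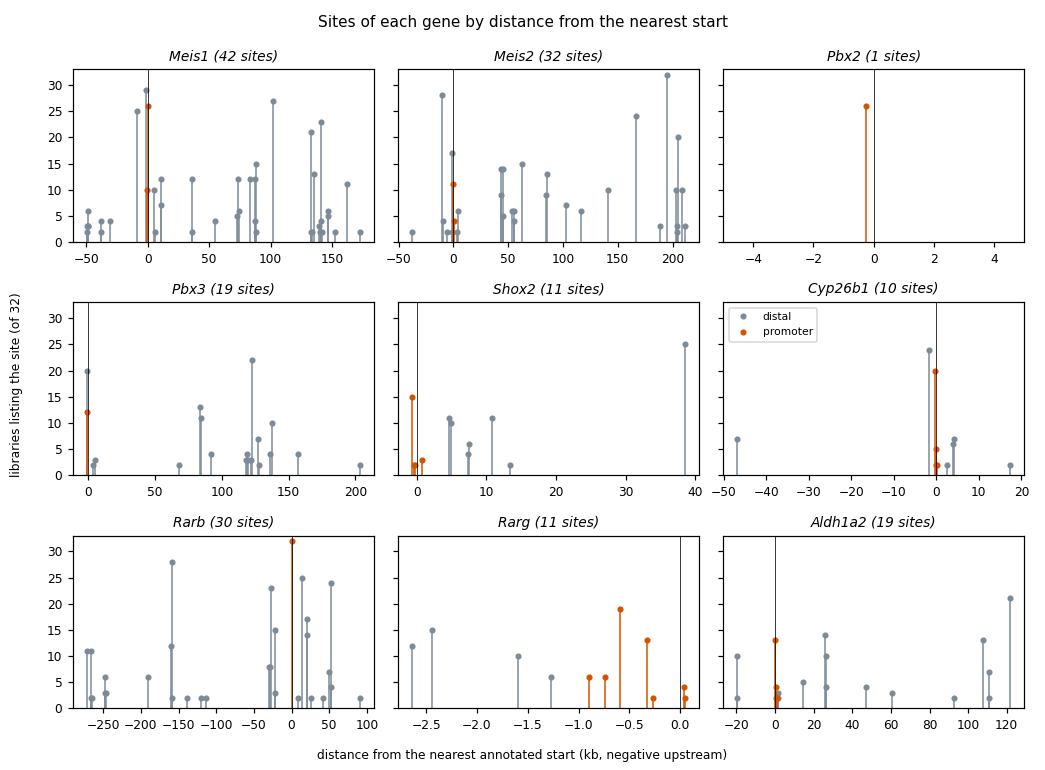
Each stem is 1 of the 175 sites, drawn by its distance in kb from the nearest annotated start of its gene (negative is upstream) and by the number of the 32 libraries that listed it. *Rarb*-P1 at the start and *Meis2*-D24, nearly 200 kb inside and at the far end of the gene, reach all 32 libraries; every other site is listed in 29 or fewer.

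Most sites were seen in few libraries. Of the 175 sites, 48.6% were listed in 5 or fewer libraries, near the 49.7% of all 125535 intervals, and 8.0% were listed in 24 or more, against 11.1% of all intervals. Distal sites alone were listed in 24 or more libraries at 7.38%, against 5.53% of all distal intervals. Promoter sites made up 14.9% of the sites of the 9 genes and 21.5% of all intervals. The sites are not independent of each other, since 83 of the 175 had another site of the 9 genes within 400 bp.

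Both sites listed in all 32 libraries held a DR5, 2 retinoic acid receptor core motifs in the same direction with 5 bases between them. Retinoic acid receptors bind such repeats together with RXR partners, and the element at the *Rarb* start is a textbook example. The core motif searched was AGGTCA on either strand, or its variant AGTTCA, or a further variant GGGTCA, or else GGTTCA. The first 2 sequences below are shown for these repeats, and the third for the only DR2, with 2 bases between core motifs, at *Meis2*-D9 (intron, listed in 9 libraries). Capitals run from the first to the last base of each repeat, all 3 are 30 bases of GRCm38, and they come from chr14:16575507-16575536 on the minus strand, chr2:115869330-115869359 on the plus strand and chr2:116021227-116021256 on the plus strand.
Rarb-P1: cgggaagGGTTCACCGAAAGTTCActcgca
Meis2-D24: agttagGGGTCACTCAGAGGTCAgtgccag
Meis2-D9: tccttcctAGGTCAAAAGGTCAcatcgcac

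A DR5 was present in 168 of all 125535 intervals (0.134%), a DR2 in 0.145% and a DR1, with 1 base between core motifs, in 0.201%, and no site of the 9 genes held a DR1. Of the 3528 intervals that all 32 libraries listed, 3 held a DR5, and *Rarb*-P1 and *Meis2*-D24 were 2 of these 3. Among 32851 RefSeq promoters of 300 bases, 32 held a DR5 (0.097%), with the *Rarb* promoter the only 1 among the 9 promoters matched to these genes. The MEIS core TGACAG was found in 17.1% of the 175 sites and 14.5% of all intervals. The PBX motifs TGATTGAT, TGATTTAT and TGATTAAT were found in 6.29% of the sites and in 3.09% of all intervals, and the ETS motifs AGGAAGT and AGGAAAT in 12% of both. A match of letters is a description and does not show that a factor was bound.

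The whole 200 bases of *Meis2*-D24 are given next, with the DR5 in capitals, followed by 4 of the 8 sites called in the tests below, namely the 3 largest differences between HL EYFP+ and CKO cells and the 1 site called under overexpression, with the MEIS core (read as CTGTCA on this strand) and the PBX motif in capitals. All are on the plus strand of GRCm38, at chr2:115869173-115869372, chr11:18916875-18917074, chr9:71230139-71230338, chr9:71241789-71241988 and chr14:16847439-16847638 in that order. *Meis1*-D26 and *Rarb*-D1 held none of the motifs searched.
Meis2-D24: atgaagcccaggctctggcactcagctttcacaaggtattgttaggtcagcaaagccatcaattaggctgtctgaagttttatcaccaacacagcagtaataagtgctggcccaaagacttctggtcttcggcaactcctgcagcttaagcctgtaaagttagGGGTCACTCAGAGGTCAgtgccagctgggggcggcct
Meis1-D26: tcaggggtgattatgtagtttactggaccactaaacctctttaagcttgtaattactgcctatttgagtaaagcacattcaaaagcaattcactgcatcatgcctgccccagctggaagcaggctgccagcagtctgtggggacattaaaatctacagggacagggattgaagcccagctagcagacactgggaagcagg
Aldh1a2-D5: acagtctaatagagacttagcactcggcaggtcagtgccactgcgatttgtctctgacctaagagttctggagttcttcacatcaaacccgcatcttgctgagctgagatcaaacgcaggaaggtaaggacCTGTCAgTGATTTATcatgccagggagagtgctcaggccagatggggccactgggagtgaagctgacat
Aldh1a2-D6: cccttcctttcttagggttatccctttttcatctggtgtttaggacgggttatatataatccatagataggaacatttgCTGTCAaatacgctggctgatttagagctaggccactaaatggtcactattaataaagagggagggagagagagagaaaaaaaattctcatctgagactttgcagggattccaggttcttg
Rarb-D1: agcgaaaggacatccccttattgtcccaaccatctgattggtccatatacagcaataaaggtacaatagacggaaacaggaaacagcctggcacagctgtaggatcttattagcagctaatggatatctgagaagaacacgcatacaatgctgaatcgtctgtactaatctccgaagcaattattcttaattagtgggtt

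The receptor gene *Rarb* had the most widely and most strongly listed promoter of the 9. *Rarb*-P1 (chr14:16575447-16575646, at the start and partly in the 5′ UTR) was listed in 32 of 32 libraries, at relative ranks of 1.58 to 44.6% (median 15.4%). It stood at 1.58 and 2.64% in the 2 E10.5 CKO libraries and at 3.61, 4.02, 10.6, 13.5 and 15.9% in the 5 E10.25 CKO libraries. In E10.5 HL EYFP+ cells it stood at 44.6, 10.7 and 22.6%, and in FL EYFP+ cells at 37.9, 21.4 and 18.8%. The CKO libraries at E10.5 thus stood above every other library, and those of HL EYFP+ and E10.25 CKO overlapped. In the test of HL EYFP+ against E10.5 CKO described below, *Rarb*-P1 was not called (-0.293 in rank score, limma adjusted p = 0.349).

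The other receptor gene, *Rarg*, had a promoter summit in 29 libraries, with a median of 58.9%. Its strongest values were in CKO libraries, from 20.8 to 75.2% at E10.25 and 22.1 and 39.8% at E10.5, against 54.3 and 55.8% in E10.25 WT and 47.7 to 68.1% in HL EYFP+ cells. *Meis1* had one in 28 libraries, at a median of 50.3%, with the strongest value of 16.2% in an E10.5 CKO library. *Pbx2* had one in 26 (median 70.9%) and none in the 3 posterior *Etv2*OE libraries, against 4 of 4 posterior controls at 83.1 to 88.9%. These last values lie near the end of the lists. They are ranks of 43515 to 48144, and the 3 posterior *Etv2*OE lists held only 47051, 38148 and 38725 summits. Whether list length accounts for the difference was not tested, and read depth is not known for any library.

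*Cyp26b1* had a promoter summit in 23 libraries (median 83.7%), *Shox2* in 20 (80.3%) and *Aldh1a2* in 17 (79.8%), all from weak positions. *Meis2* had one in 13. It was listed in 1 of 1 E9.5, 2 of 2 E10.25 WT, 4 of 5 E10.25 CKO, 1 of 2 E10.5 CKO, 2 of 3 HL EYFP+ and 0 of 3 FL EYFP+ libraries. It was also listed in the *Shh-EGFP* posterior library, at 53.7%, and not in the anterior one. In the overexpression experiment it was listed in 2 of 4 posterior controls, at 79.4 and 98.3%, and in 0 of 4 anterior controls and 0 of 6 *Etv2*OE libraries. The *Meis2* promoter therefore stood at 29.6 to 65.1% in the hindlimb libraries outside the overexpression experiment that listed it. It was weak or unlisted within that experiment, where *Meis2*-D24 was listed in all 14 libraries.

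*Pbx3* appeared to have a promoter summit in only 12 libraries, but this count reflects where the summit was placed. *Pbx3*-P1 (chr2:34372848-34373047) and *Pbx3*-D1 (chr2:34373053-34373252), 205 bp apart on either side of the 1 kb limit, were never listed together, and each library listed either P1 (12) or D1 (20). As a pair they stood at 2.34 to 35.3% in 32 of 32 libraries, with a median of 17.5%, close to the 15.4% of *Rarb*-P1. All 7 CKO libraries listed P1, as did the E9.5 library, the *Shh-EGFP* posterior library, 1 of 2 WT, 1 of 3 HL EYFP+ and 1 of 4 anterior control libraries, whereas all 3 FL EYFP+, all 4 posterior control and all 6 *Etv2*OE libraries listed D1. The choice between the 2 positions was not tested.

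**Figure D2:**
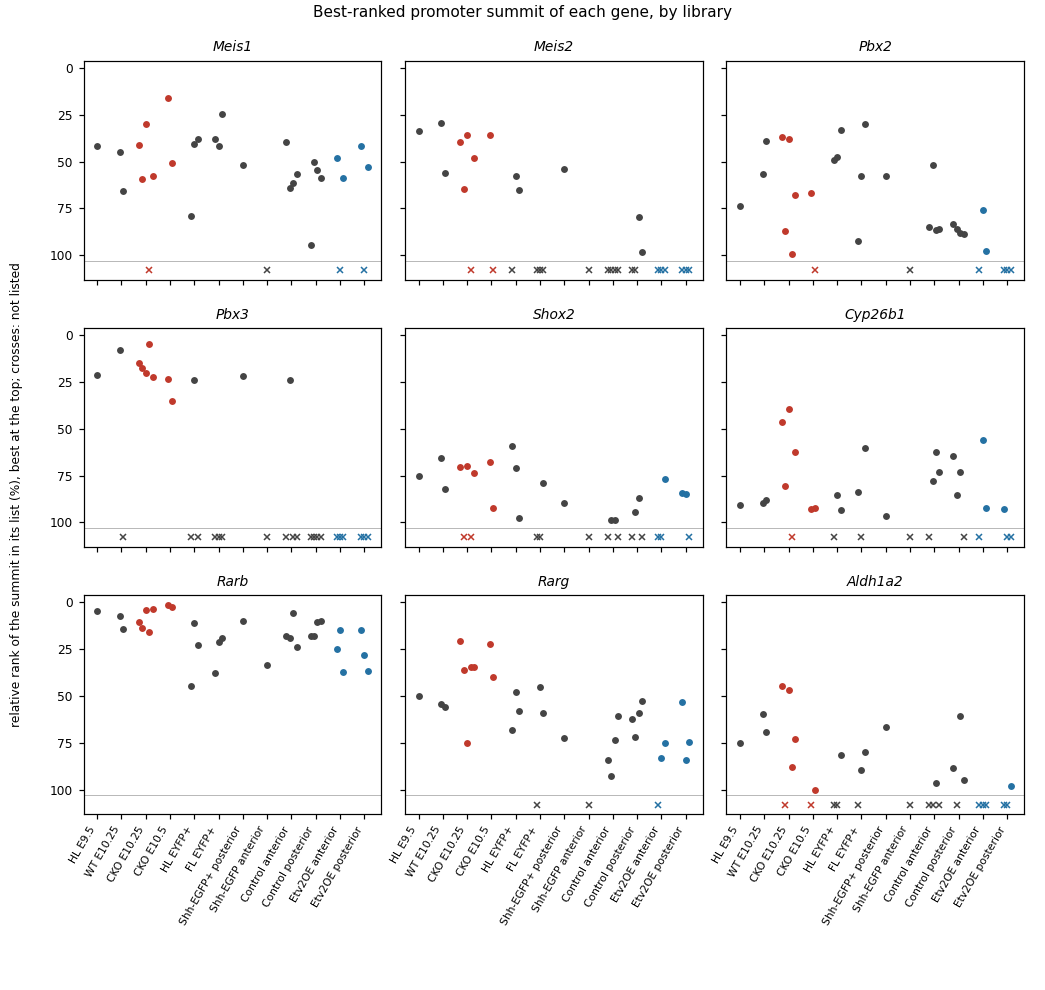
Relative rank (percent of list length, strong at the top) of the best promoter summit of each gene in each of the 32 libraries by group, with red for CKO, blue for *Etv2*OE and black for all others; crosses at the foot are libraries that did not list one. *Rarb* lies between 1.58 and 44.6% in every library, and the crosses for *Pbx3* are libraries whose summit lay in the neighbouring distal site.

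Among distal sites, *Meis2*-D24, in an intron 195239 bp downstream of the nearest start, was the strongest of the 149. It was listed at a median of 5.08%, at 1.20 to 3.25% in HL EYFP+ and 1.66 to 2.72% in FL EYFP+ cells, and at 1.38 to 8.69% over the 14 libraries of the overexpression experiment. Only replicates 2 and 4 of the E10.25 CKO group, the short lists, placed it beyond 16.7%, at 81.8 and 41.7%. In HL EYFP+ it therefore ranked close to the top of all summits in the genome and, at 2.59 and 4.93%, also in E10.5 CKO.

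*Rarb* had the next strongest distal chromatin, a pair of summits 346 bp apart in an intron (*Rarb*-D22 and *Rarb*-D23). Together they were listed in 31 libraries, never both, at a median of 7.86%, missing only in E10.25 CKO replicate 2. *Rarb*-D11, in an intron 158023 bp upstream of the nearest start, was listed in 28 libraries at a median of 18.2%. It stood at 1.98 and 6.17% in E10.5 CKO, at 21.8, 12.1 and 26.3% in HL EYFP+ and at 17.8 to 42.8% in the 4 E10.25 CKO libraries that listed it.

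*Meis1*-D10, upstream of the start by 1550 bp, was listed in 29 libraries at a median of 39.9%, with values from 11.9 to 99.6% that overlapped between groups. *Meis2*-D2, 10232 bp upstream, was listed in 28 at a median of 31.6%. *Shox2*-D7, 38579 bp downstream of the *Shox2* start, was listed in 25 libraries at a median of 38.5%. It stood at 13.4, 16.0 and 10.47% in FL EYFP+ cells and at 56.5, 36.1 and 24.01% in HL EYFP+ cells, with no overlap between these groups, but the test of forelimb against hindlimb below did not call it (0.250 in rank score, limma adjusted p = 0.785). *Cyp26b1*-D2, in an intron, was listed in 24 libraries (median 59.8%), *Pbx3*-D12 in 22 (64.1%), *Aldh1a2*-D15, downstream of the gene, in 21 (40.3%), and *Rarg*-D3 in 15 (64.5%).

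Some distal sites were listed mainly in 1 experiment. *Aldh1a2*-D12, 107902 bp downstream of the start, was listed in 13 of the 14 libraries of the overexpression experiment, at 16.8 to 78.4%, and in none of the other 18. *Meis2*-D10 was listed in 13 of those 14 libraries and in 1 FL EYFP+ library, but its neighbour *Meis2*-D9, 478 bp away, was listed in 9 libraries outside that experiment. The 2 were never listed together, and as a pair they were listed in 23 libraries, among them all 3 FL EYFP+, both E10.5 CKO and 3 of 5 E10.25 CKO libraries, so a summit near *Meis2*-D10 was not limited to that experiment. *Meis2*-D22, by contrast, was listed in 24 libraries, in all 3 HL EYFP+ (23.4, 24.4 and 31.1%) and all 3 FL EYFP+ (11.9, 20.8 and 13.6%) libraries and at 42.9 and 71.5% in E10.25 WT. It was listed in 0 of 5 E10.25 CKO libraries, in 1 of 2 E10.5 CKO libraries at 65.5% and not at E9.5. These sites were picked after their values were seen. Stage, dissection and sorting differed between these experiments and cannot be told apart.

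**Figure D3:**
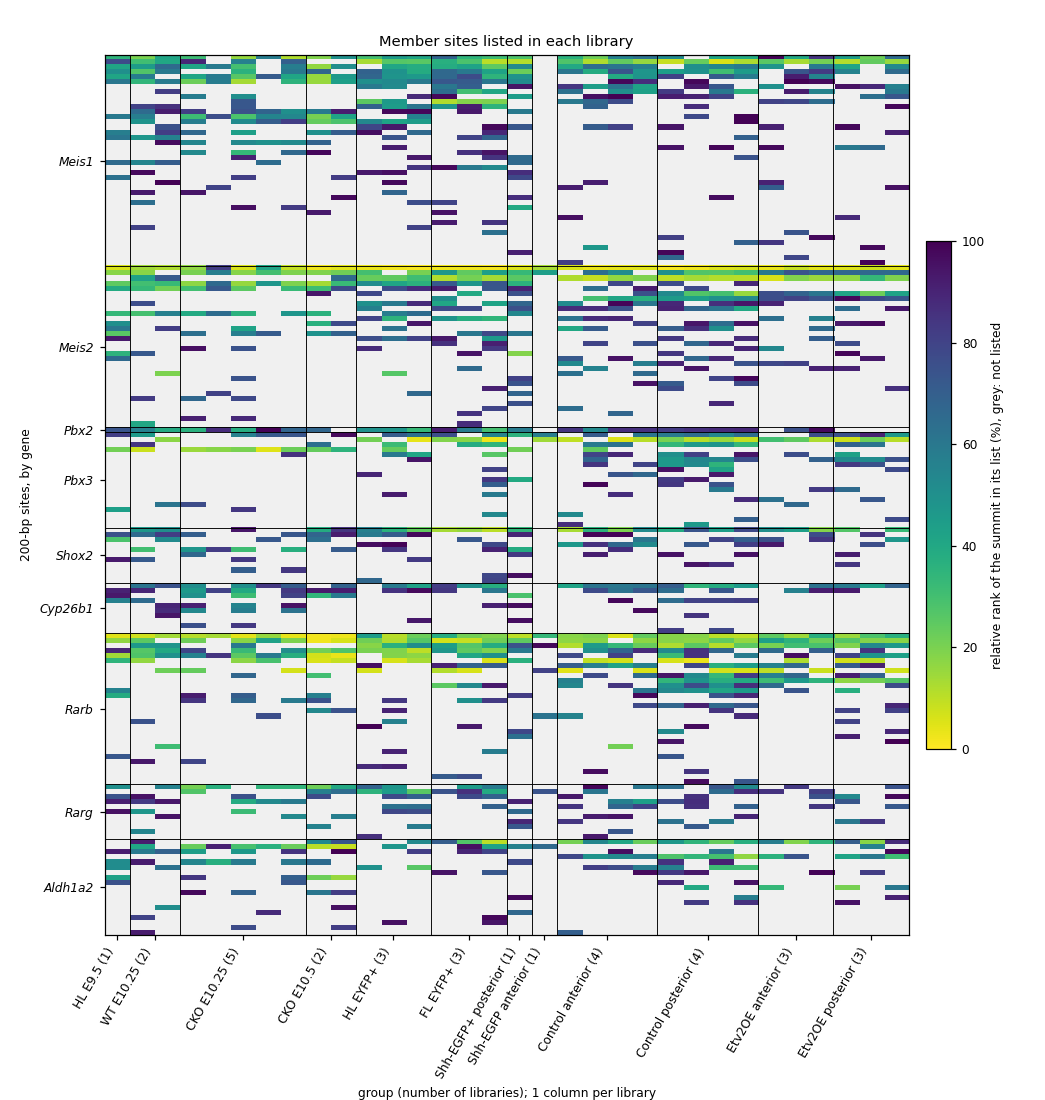
Each row is 1 of the 175 sites, grouped by gene and ordered from most to least often listed, and each column is 1 of the 32 libraries by group; colour is the relative rank in percent (yellow strong, purple weak) and grey is not listed. The bright rows near the top of *Meis2* and *Rarb* are *Meis2*-D24 and *Rarb*-P1, and most other rows are filled in few libraries.

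To compare groups at equal depth of listing, every list of a comparison was cut to the same length, and each site was given a rank score from 1 (top) to 0 (not listed within that length). Scores were tested with limma over all intervals listed in at least 2 of the libraries compared. Adjusted p was by Benjamini-Hochberg over all of them, with a threshold of 0.05. A site with a score of 0 throughout 1 group passed this filter only through the other group, so part of its separation was fixed by the filter. Among called sites this held for *Meis1*-D26, *Aldh1a2*-D5 and *Cyp26b1*-D1 in HL EYFP+ against CKO. It also held for *Aldh1a2*-D5 between the CKO stages. Differences below are in rank score, the first group minus the second. Nothing in the sources shows that libraries of the same group came from separate litters, so these p-values measure the spread between these libraries only.

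In E10.5 HL EYFP+ cells against E10.5 CKO hindlimb, sites of the 9 genes were called at a share close to that of all intervals. The sites called were an intronic *Meis1* site, stronger in EYFP+ cells, and sites at *Aldh1a2* and *Cyp26b1*, stronger in CKO. At 28000 summits per list, 51 sites of the 9 genes could be tested, 4 were called, 1 higher and 3 lower, and 21 had an unadjusted p under 0.05. Of all 33779 intervals tested, 5.16% were called, 1.61% higher and 3.56% lower in EYFP+ cells, so the share of the 51 sites called, 7.84%, was close to the genome's. The median difference was -0.136 over the 51 sites and 0.0029 over all intervals. It was -0.161 over the 9 promoter sites, against -0.0011 over all promoter intervals. Over the 42 distal sites it was -0.0614, against 0.0112 over all distal intervals, and 21 distal sites were lower and 21 higher in EYFP+ cells.

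*Meis1*-D26, in an intron 101739 bp downstream of the start, stood at 12.9, 26.4 and 25.5% in the HL EYFP+ libraries and was not listed in either E10.5 CKO library. Its mean rank score was 0.716 ± 0.123 (SD, n = 3) in EYFP+ cells and 0 in both CKO libraries. The difference was 0.716 (SE 0.0945, limma adjusted p = 0.0316). The same site was listed in all 3 FL EYFP+ libraries (37.0, 28.3 and 10.51%), in both E10.25 WT libraries (30.8 and 40.4%) and in all 14 libraries of the overexpression experiment at 5.52 to 27.7%. It was weak or missing in E10.25 CKO, where 3 of 5 libraries listed it, at 89.4, 56.6 and 69.7%, and at E9.5, at 77.6%. Apart from the *Shh-EGFP* anterior library, the shortest list, it was thus missing from CKO libraries alone, both at E10.5 and the 2 short lists at E10.25.

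*Aldh1a2*-D5, in an intron of the retinoic acid synthase gene, went the other way. It was listed in no HL EYFP+ library and at 22.2 and 15.5% in E10.5 CKO, with a mean score of 0.784 ± 0.0825 (SD, n = 2) in the latter. The difference was -0.784 (SE 0.0682, limma adjusted p = 0.0184). The only other libraries to list it were E9.5 hindlimb (42.6%) and 2 of 5 E10.25 CKO libraries (83.7 and 69.5%). It was therefore listed in 4 of 7 CKO libraries and in 1 of the other 25.

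*Aldh1a2*-D6, 26100 bp into the gene, stood at 10.16 and 8.71% in E10.5 CKO and at 47.9% in 1 HL EYFP+ library, and the difference was -0.796 (SE 0.119, limma adjusted p = 0.0396). This call depended on the position of the summit. The other 2 HL EYFP+ libraries listed *Aldh1a2*-D7, 225 bp away, at 49.4 and 25.8%, and with neighbours within 400 bp joined, an alternative added after the data were seen, the difference was -0.424 (limma adjusted p = 0.168). *Aldh1a2*-D6 and *Aldh1a2*-D7 as a pair were listed in 24 libraries, at 8.71 and 10.16% in E10.5 CKO and at 22.8 to 96.0% in the others. Joining also took in *Aldh1a2*-D8, listed at 20.5 to 60.4% in 4 further libraries, all of the overexpression experiment.

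*Cyp26b1*-D1, 46927 bp upstream of the *Cyp26b1* start and inside the neighbouring gene *Exoc6b*, was listed at 34.2 and 59.2% in E10.5 CKO and in no HL EYFP+ library (difference -0.490, SE 0.0796, limma adjusted p = 0.0471). It was also listed in 3 of 5 E10.25 CKO libraries (49.2, 31.1 and 80.5%), in the *Shh-EGFP* posterior library (28.8%) and at E9.5 (93.4%). Sorting and region differed between HL EYFP+ and CKO cells as well as genotype, and these cannot be told apart. Leaving out any 1 of the 5 libraries left none of the 4 calls, except that *Aldh1a2*-D5 was still called without HL EYFP+ replicate 3 (-0.784, limma adjusted p = 0.0402).

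**Figure D4:**
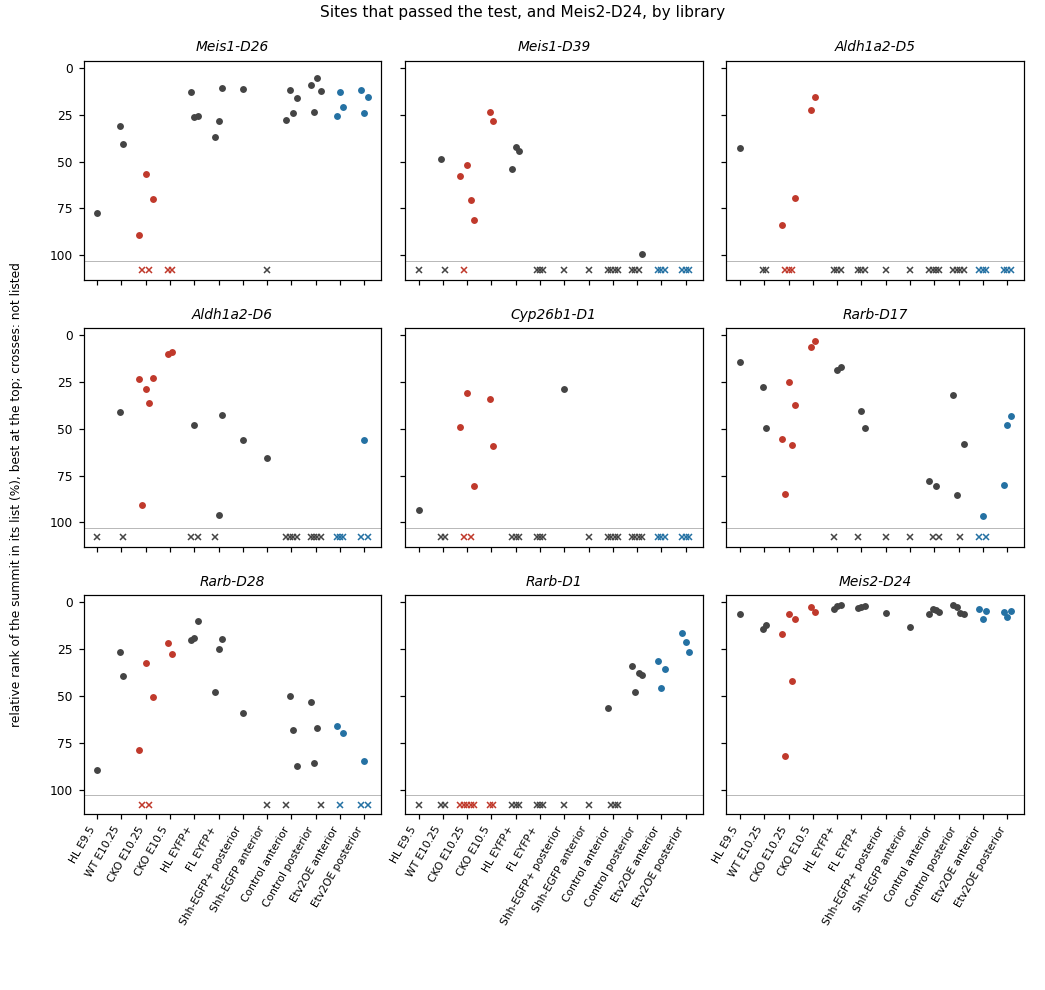
Relative rank (percent of list length, strong at the top) in each of the 32 libraries for the 8 sites that passed a test in any comparison and for *Meis2*-D24, with red for CKO, blue for *Etv2*OE, black for all others and crosses for libraries that did not list the site. *Aldh1a2*-D5 is strong only in E10.5 CKO, *Rarb*-D1 is listed only in the overexpression experiment, and *Meis2*-D24 is near the top of almost every list.

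At E10.25, where WT and CKO were both posterior hindlimb, no site of the 9 genes was called at 15000 summits per list. Limma tested 22 sites, 2 had an unadjusted p under 0.05, and 2.36% of all 20806 intervals were called. The largest differences were 0.151 at *Rarb*-D28 (limma adjusted p = 0.385), an intronic site at 26.5 and 39.5% in WT, and -0.404 at *Rarg*-P5 (adjusted p = 0.440), a promoter site at 20.8, 36.3, 34.6 and 34.7% in 4 of 5 CKO libraries and at 55.8% in 1 of 2 WT libraries. The short lists of CKO replicates 2 and 4 set the list length here.

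Without those 2 replicates, which allowed longer lists and was also chosen after the data were seen, 3 sites were called. *Shox2*-D7 was higher in WT by 0.372 (limma adjusted p = 0.0427), at 47.0 and 50.4% in WT against 93.8% in 1 CKO library. *Meis1*-D13, an intronic site, was higher in WT by 0.339 (adjusted p = 0.0355), listed at 47.6 and 55.5% in WT and in no CKO library. *Meis1*-D33, downstream of the gene, was lower in WT (-0.511, adjusted p = 0.0350), at 41.0, 25.96 and 41.4% in the 3 CKO libraries kept and at 58.0% in 1 of 2 WT libraries. With all 7 whole lists 3 sites were called, all higher in WT, namely *Shox2*-D7 (0.500, adjusted p = 0.00516), *Meis1*-D13 (0.484, adjusted p = 0.00559) and *Meis2*-D22 (0.428, adjusted p = 0.0422). The calls thus depended on how far down the lists were read. No share of all intervals is given for these settings, so the calls are not read as a result about these genes.

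In CKO hindlimb, 4 distal sites at *Aldh1a2*, *Meis1* and *Rarb* were stronger at E10.5 than at E10.25, and none was weaker. Of 24 sites tested at 15000 summits per list, 4 were called, all lower at E10.25, and 7 had an unadjusted p under 0.05. Of all 21119 intervals tested 7.60% were called, 5.76% in this direction. *Rarb*-D17, in an intron, stood at 55.5, 84.7, 25.2, 58.7 and 37.2% in the 5 E10.25 libraries and at 6.48 and 3.25% at E10.5, so the stages did not overlap (difference -0.719, SE 0.0925, limma adjusted p = 0.00661).

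*Rarb*-D28 was listed at E10.25 in 3 of 5 libraries (79.0, 32.3 and 50.4%) and at E10.5 at 21.4 and 27.6% (-0.478, adjusted p = 0.00457). *Meis1*-D39, 162470 bp downstream of the *Meis1* start and beyond the gene, moved from 57.5, 52.0, 70.4 and 81.3% in 4 of 5 libraries to 23.5 and 28.5% (-0.445, adjusted p = 0.00552). *Aldh1a2*-D5, described above, differed by -0.598 (adjusted p = 0.00473). The largest difference the other way was 0.284 at *Pbx3*-P1 (adjusted p = 0.360). Without the short lists of replicates 2 and 4, 1 site was called, *Aldh1a2*-D5 (-0.691, adjusted p = 0.0459), and without either E10.5 library none was. The E10.5 CKO libraries also enter the comparison with EYFP+ cells, so the results of the 2 comparisons are not independent. The rank of distal intervals rose in general, with a median difference of -0.122 over all distal intervals and -0.178 over the 18 distal sites of the 9 genes, and the share of promoters among the 13000 best-ranked summits was 64.0 to 73.3% at E10.25 and 55.0% at E10.5.

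At an equal length of 13000 summits, CKO libraries held more sites of the 9 genes near the top than most other libraries. The 5 E10.25 CKO libraries held 15 to 17 of them and the 2 E10.5 CKO libraries 23 and 15, against 8 and 11 in E10.25 WT, 12 at E9.5, 10 to 15 in HL EYFP+ and 8 to 13 in FL EYFP+ cells. *Meis1* accounted for 3 to 6 in CKO libraries and 0 to 3 in all others. With replicates 2 and 4 left out, the E10.25 CKO libraries held 15, 16 and 15. The counts of CKO and HL EYFP+ meet at 15 and those of E10.25 CKO and WT do not overlap. Over whole lists, the 9 genes held 0.128 to 0.157% of summits in CKO libraries and 0.0727 to 0.157% in all others. The counts at 13000 were not tested and have no count over other genes beside them. An excess particular to these 9 genes is therefore not shown.

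**Figure D5:**
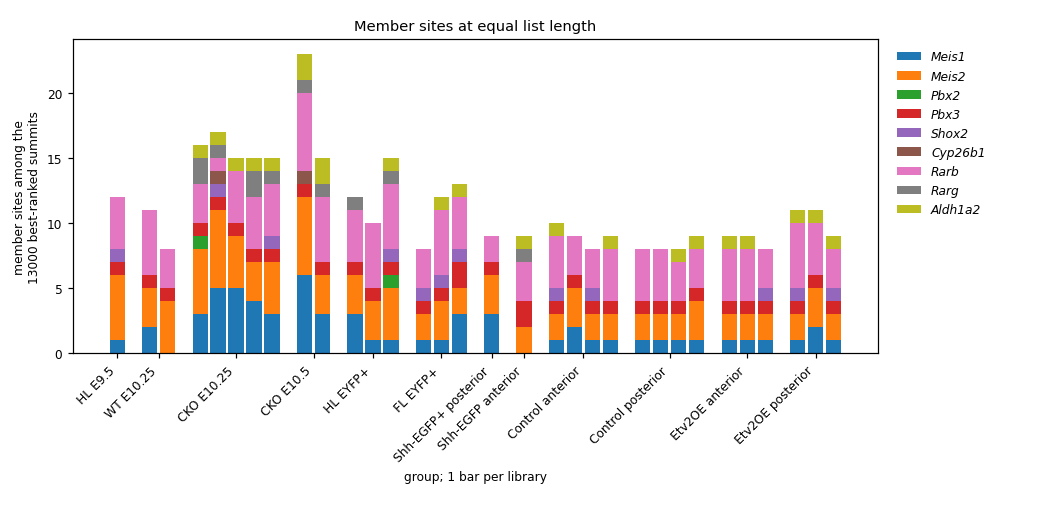
Number of sites of each gene among the 13000 best-ranked summits, 1 bar per library by group, coloured by gene. CKO bars reach 15 to 23 and all other bars 8 to 15, with *Meis2*, *Rarb* and *Meis1* making up most of each bar.

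Between forelimb and hindlimb EYFP+ cells no site of the 9 genes was called at 32000 summits per list. Limma tested 50 sites, 6 had an unadjusted p under 0.05, and 0.147% of all 42090 intervals were called. The same pools gave both limbs, and with the pool as a replicate block the count was 0 too. *Meis1*-D39 came nearest, at 53.8, 42.2 and 44.6% in hindlimb and not listed in any forelimb library (-0.479, SE 0.0638, adjusted p = 0.0734). Its groups did not overlap. The site was also listed in CKO hindlimb, as given above, and in 1 of 14 libraries of the overexpression experiment, at 99.5%. *Aldh1a2*-D15 was the largest difference towards forelimb, at 70.5, 27.1 and 10.23% there and at 52.9% in 1 hindlimb library (0.401, adjusted p = 0.785).

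In control hindlimbs, no site of the 9 genes was called between the anterior and the posterior part. Limma tested 57 sites at 32000 summits per list, 9 had an unadjusted p under 0.05, and 1.44% of all 57271 intervals were called. *Meis2*-D16, in an intron 63025 bp downstream of the start, was the nearest to a call, with a difference of -0.484 (SE 0.111, adjusted p = 0.0609). It stood at 52.6, 27.3, 29.4 and 15.6% in the posterior parts and was listed in 1 of 4 anterior parts, at 75.5%. *Shox2*-D7 leaned to the anterior part, at 13.1, 35.6, 19.8 and 51.6% against 39.2, 73.9, 44.1 and 77.5% in the posterior part (0.434, adjusted p = 0.326). The ranges of the parts overlapped, but within embryos the anterior part was stronger in 4 of 4 controls, and with the embryo as a replicate block the adjusted p by limma was 0.226. In *Etv2*OE embryos 7, 9 and 10 the same site stood at 50.8, 44.0 and 18.6% in the anterior part and at 26.8%, unlisted and 32.5% in the posterior part. Calls appeared when 1 library was left out, with *Meis2*-D16 (-0.599, adjusted p = 0.00528) and *Meis2*-D2 (-0.427, adjusted p = 0.0166) called without posterior control 1, *Rarb*-D1 (-0.344, adjusted p = 0.00729) and *Meis2*-D10 (0.299, adjusted p = 0.0373) without anterior control 1 and *Pbx3*-D13 (-0.269, adjusted p = 0.0387) without posterior control 4. Without posterior *Etv2*OE embryo 9, which enters the shared estimate of spread, *Meis2*-D16 was called at an adjusted p of 0.0485 by limma.

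Under *Etv2* overexpression the same 2 parts gave 0 calls, 7 unadjusted p under 0.05 and 1.11% of all intervals called. *Meis2*-D16 was listed in all 3 anterior parts there, at 76.0, 68.4 and 61.2%, and in the posterior parts at 41.6, 22.1 and 42.1% (-0.307, adjusted p = 0.392). *Aldh1a2*-D15 had the largest difference towards the anterior part (0.310, adjusted p = 0.669). Without the anterior part of embryo 9, *Meis2*-D21 was called (0.296, adjusted p = 0.0461), and without the posterior part of embryo 10, *Meis1*-D20 was (-0.169, adjusted p = 0.0477).

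*Etv2*OE against control gave 1 call in the anterior part and none in the posterior part, and the site nearest to a call in the posterior part was the same. In the anterior part 59 of all intervals were called (0.103%), 0.0681% higher under overexpression, and 2 of the 57 sites had an unadjusted p under 0.05. *Rarb*-D1 (chr14:16847439-16847638) lies upstream of the annotated *Rarb* gene, 271712 bp from the nearest protein-coding start. In anterior parts it stood at 31.1, 45.9 and 35.3% with overexpression and at 56.4% in 1 of 4 controls, with mean scores of 0.584 ± 0.0542 (SD, n = 3) and 0.0695 ± 0.139 (SD, n = 4). The difference was 0.514 (SE 0.0714, limma adjusted p = 0.0211).

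In posterior parts *Rarb*-D1 stood at 16.6, 21.1 and 26.2% with overexpression and at 34.2, 48.1, 37.5 and 38.9% in controls, again with no overlap. That difference of 0.386 (SE 0.0714) had an adjusted p of 0.109 by limma and was not called. In the posterior part 0 of 57 sites were called, 7 had an unadjusted p under 0.05 and 0.0751% of all intervals were called. *Rarb*-D1 was listed in none of the 18 libraries outside this experiment. The anterior call was lost (0 calls) without anterior control 2, 3 or 4. Without anterior control 1, the only one to list the site, *Rarb*-D1 was called in both parts, by 0.584 in the anterior (adjusted p = 0.00122) and by 0.386 in the posterior part (adjusted p = 0.0254).

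The largest losses under overexpression were -0.241 at *Meis2*-D10 in the anterior part (adjusted p = 0.830) and -0.302 at *Meis2*-D2 in the posterior part (adjusted p = 0.593). *Meis2*-D10 stood at 76.4, 80.4 and 74.9% against 29.9, 41.7 and 36.5% in 3 of 4 anterior controls, and the fourth control did not list it. *Meis2*-D2 stood at 66.8, 66.1 and 65.9% in posterior *Etv2*OE and at 49.7, 27.1, 26.9 and 30.2% in posterior control parts, with no overlap. The interaction of overexpression and part was called at 0 of the 57 sites (1 unadjusted p under 0.05, 0.0489% of all intervals), with the largest term at *Meis2*-D2 (0.450, adjusted p = 0.828). Both parts of a limb come from the same embryo. With the embryo as a replicate block, the counts were also 0 for anterior against posterior in control and *Etv2*OE hindlimbs and for the interaction.

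Other genes of these pathways were counted by the same rule. A list of 26 genes, among them *Pknox1*, the retinoid receptors *Rara* and *Rxra*, the binding proteins *Crabp1* and *Crabp2*, *Cyp26a1* and *Hoxa13*, had 252 sites, and 24 of the 26 had a promoter site. Promoters of *Pbx4*, *Pknox1* and *Nrip1* were listed in all 32 libraries. From E10.25 to E10.5 in CKO, 7.60% of all 21119 intervals were called, 5.76% as stronger at E10.5. Of the 36 sites of the list tested there, 4 were called, all stronger at E10.5. They were at *Crabp1*, a retinoic acid binding protein gene (-0.598, limma adjusted p = 0.00214), *Nrip1*, a co-repressor of nuclear receptors (-0.576, adjusted p = 0.00709), *Pknox2*, a TALE homeodomain gene (-0.465, adjusted p = 0.0229), and *Dhrs3*, a retinal reductase gene (-0.311, adjusted p = 0.0154). Between control parts, 3 of 117 were called, beside 1.44% of all 57271 intervals. A site at *Nrip1* was stronger in the anterior part (0.545, adjusted p = 0.00236), and a site at *Pknox1* (-0.374, adjusted p = 0.0386) in the posterior part. In *Etv2*OE embryos a site at *Nrip1* was again stronger in the anterior part (0.583, adjusted p = 0.00517). It was the only 1 of 117 called there, beside 1.11% of all intervals. Whether the list exceeded these shares was not tested. No site of the list was called in HL EYFP+ against CKO (71 tested), WT against CKO (29), FL against HL (80), overexpression against control in either part or the interaction (117 each).

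Rank scores of each gene's sites within the 13000 best-ranked summits were summed. Across the 12 groups, this sum was set beside that of every other protein-coding gene with at least 5 sites. The most like *Meis1* were *Tob2* (Pearson r = 0.905) and *Sema4c* (0.891), and the most like *Meis2* were *Il17b* (0.962) and *Tle4* (0.946). For *Rarb* they were *Spsb4* (0.930) and *Foxp2* (0.924), for *Rarg* *Asic4* (0.961) and *Kmt2a* (0.956), and for *Aldh1a2* *Esrrb* (0.965) and *Tfpi2* (0.959). For *Pbx3* they were *Capg* (0.922) and *Baz2b* (0.907), and for *Shox2* *Slc23a2* (0.940) and *Nphp4* (0.923). *Cyp26b1* reached 1.00 with *Fam129a*, but only 2 libraries held a *Cyp26b1* site among the 13000 best, so this rests on those libraries. *Rarg* scored above 0 only in the CKO groups, in HL EYFP+ and in the *Shh-EGFP* anterior library. *Shox2* scored 0 in several groups, so the values of both genes also rest on few groups. These values describe 12 points that share libraries, stage and list composition, were the best of many genes, and carry no test.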

How the data were processed

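ATAC-seq was measured in 32 libraries of mouse limb bud cells. The authors aligned reads to mm10 with Bowtie2 (2.2.4), discarded ambiguous alignments and Picard duplicates and ran MACS2 on each library, with settings not given in the sources used here. Per summit, the authors deposited a −log10 q-value, with the weakest between q = 0.046 and 0.050. It served only to rank summits within a list, and read depth is unknown. Mitochondrial summits were removed.

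Groups came from the sample labels, with A and P in the overexpression labels read as anterior and posterior. Summits within 200 bp were assigned to non-overlapping 200-bp intervals centred on the best-ranked summits. Genes and starts were from GENCODE M21, sequences from the GRCm38.p6 genome and promoters of 300 bases from RefSeq. Rank scores in lists of equal length were tested with limma (3.58.1) in R (4.3.3) over all intervals, within each of 9 comparisons, which stood in for the count test of the study since the lists hold no counts; the code was also tested on simulated scores. Named sites were each gene's most listed promoter and distal site, every called site and the largest difference each way per comparison. The site of 1 gene of the pathway list that was called between control parts is not reported here. The genes, lists and sites were chosen with earlier results of these data known. Same-pool FL and HL EYFP+ libraries deviated together over all intervals (r = 0.199, 0.193 and 0.425, against -0.257 to 0.0674 between pools), and the 2 parts of an embryo did so weakly (r = 0.00718 to 0.0402). Alternatives covered list length, summit distance, interval width, the filter, presence only, promoter width, single libraries and the replicate block. Python 3.11.15, pandas 2.3.3, numpy 2.4.6 and pysam 0.24.0 were used.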

Additional observations from a re-analysis of the deposited data

Results flagged for a closer look

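Of 53 values tested over the groups of 4 or 5 libraries, 7 had a library set apart from the rest of its group, and chance flags about 1 in 20. In E10.25 CKO, replicate 2 placed *Aldh1a2*-D6 at a relative rank of 90.9%, against 22.8 to 36.4% in the other 4, and the joined *Aldh1a2*-D6 and *Aldh1a2*-D7 gave the same 90.9%. Also in E10.25 CKO, *Rarg*-P5 stood at 20.8% in 1 library and at 34.6 to 36.3% in the other 3 that listed it. Among anterior controls, *Cyp26b1*-D2 stood at 42.2% in 1 library and between 60.2 and 61.5% in the rest, and the *Pbx2* promoter site *Pbx2*-P1 at 52.0% in 1 library against 84.9 to 86.8%. Among posterior controls, *Meis2*-D2 stood at 49.7% in 1 library and between 26.9 and 30.2% in the other 3, and 1 library held 9 sites of the 9 genes among its 13000 best-ranked summits against 8 in the others. Where all other counts are equal, a difference of 1 is always flagged, so this last flag carries little. The flags of *Aldh1a2*-D6 and of its joined pair rest on the same value, so the 7 are not independent. Among the named sites, which were the only ones examined for this, none had an effect of *Etv2* overexpression whose direction was opposite in every sample of the 2 parts.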

How the results depend on the processing

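The number of called sites depended on how far down the lists were read. With whole lists it was 2 for HL EYFP+ against CKO (4 in the report), 3 for E10.25 WT against CKO (0), 1 for CKO E10.25 against E10.5 (4), 4 between control parts (0), 0 for overexpression in the anterior part (1) and 1 in the posterior part (0). With 0.5 of the equal length it was 2 for HL EYFP+ against CKO, 1 between *Etv2*OE parts (0), 0 for anterior and 1 for posterior overexpression. The called sites changed too. For HL EYFP+ against CKO they were *Aldh1a2*-D6 and *Meis1*-D39, so *Meis1*-D26, *Aldh1a2*-D5 and *Cyp26b1*-D1 were lost. For CKO stages the count was unchanged, but only *Rarb*-D17 stayed, beside *Aldh1a2*-D6, *Rarb*-D22 and *Rarb*-D11. A fixed length of 10000 gave 1 for HL EYFP+ against CKO (*Aldh1a2*-D6) and 6 for CKO stages, with *Meis1*-D39 no longer called. With presence alone it was 12, 3, 1, 2 and 1 for HL EYFP+ against CKO, WT against CKO, CKO stages, FL against HL and control parts, and 1 for the interaction. For overexpression in the anterior part it stayed at 1 with presence alone, but the site called was *Meis2*-D16 and not *Rarb*-D1. FL against HL gave 1 with any summit within 200 bp and 1 with intervals in at least 1 library. Control parts gave 1 with 500-bp intervals and 2 with neighbours joined, and short CKO lists left out gave 3 for WT against CKO and 1 for CKO stages, the last 2 settings chosen after seeing the data. For HL EYFP+ against CKO, *Cyp26b1*-D1 was not called with summits within 100 bp, any summit within 200 bp or intervals in at least 1 library. A *Meis2* site was called in each of these settings, but the site and the direction changed. In the same order they were *Meis2*-D2 (-0.7723), its neighbour *Meis2*-D3 (0.673) and *Meis2*-D9 (-0.3485). *Aldh1a2*-D6 was not called in the last 2 of these settings, with 500-bp intervals or with neighbours joined. Leaving out 1 library at a time gave 0 to 1 for HL EYFP+ against CKO, 0 to 5 for CKO stages, 0 to 2 for control parts, 0 to 1 between *Etv2*OE parts and 0 to 1 for overexpression in either part. With the replicate number as a replicate block, which pairs no cells in these groups, HL EYFP+ against CKO and CKO stages gave 0; no other blocked fit changed a count. Promoter sites numbered 17, not 26, at 500 bp. No direction reversed. *Etv2*OE and control embryos differ, so no embryo block was fitted between them. Lists from 1 peak caller threshold limit what weak sites can show.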
